A study of Mus musculus with 12 samples.

Results

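The 10 genes described here belong to the activin and TGF-beta pathway: 2 ligand genes (Inhba and Tgfb1), 3 receptor genes (Tgfbr1, Tgfbr2 and Acvr2a), 2 receptor-activated SMAD genes (Smad2 and Smad3) and 3 inhibitor genes (Smad7, Ski and Skil). They were picked by symbol from the 56691 gene IDs of a count table, with earlier results of these data in view, so their values and calls are given as a description and support nothing by themselves. The study measured RNA by sequencing in naive CD8+ T cells isolated from mouse spleen, in 4 groups of 3 libraries. WT cells carried Senp1, which encodes a protease that takes the small protein SUMO off other proteins, and the CKO group is labelled as its knockout. In each genotype 1 group was left unstimulated (0 h) and the other was stimulated for 48 h by antibodies against the T-cell receptor component CD3 (5 µg/ml) and against CD28 (1 µg/ml), which gives a second, costimulatory signal. The Cre that drove the deletion, the deleted exons, the age and strain of the mice, and any pooling of animals are not stated in the labels.

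TGF-beta and the activins are secreted dimers of related subunits. The product of Inhba pairs with itself to form activin A, and Tgfb1 encodes the TGF-beta form that lymphocytes mostly make. A ligand joins type II receptors (Tgfbr2 for TGF-beta, Acvr2a for activin) to type I receptors (Tgfbr1 for TGF-beta, Acvr1b for activin), which phosphorylate SMAD2 and SMAD3. These join SMAD4 in the nucleus. SMAD7 blocks the type I receptors and brings ubiquitin ligases to them, while SKI and SKIL bind SMADs and hold their target genes down. In CD8+ T cells TGF-beta is known for restraining activation and effector genes and for inducing the integrin subunit gene Itgae, a feature of cells that stay in epithelia.

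Library totals ran from 15900529 to 22427151 counts. Senp1 was measured at 77.9 to 85.4 CPM (counts brought to a common library total with TMM factors) in WT and 54.6 to 59.8 CPM in CKO at 0 h, and at 150 to 171 against 66.3 to 74.5 CPM at 48 h, so it was lower in every CKO library but not at 0. The summed level of 7 CD8 T-cell markers was 3320 to 3639 CPM at 0 h and 1483 to 1781 CPM at 48 h. The WT libraries numbered 1 stood apart in 5 B-cell markers, whose sum was 450 CPM in the first 0 h library against 233 and 238 in the other 0 h libraries, and 53.7 CPM against 26.6 and 31.7 at 48 h. The CKO libraries numbered 1 were also highest of their groups in this sum, by less. They had 202 CPM against 161 and 187 at 0 h, and 48.9 CPM against 32.1 and 37.8 at 48 h. Only the WT ones were left out together. Where leaving out both WT libraries numbered 1 changed the call of a gene followed in that fit, its value without them is given. Nothing in the labels says that replicates were taken from different animals, so the tests measure the spread between these samples, which may be technical. In whole-population RNA, fewer cells of a kind and less RNA per cell cannot be told apart.

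Most of the 10 genes were lower and the ligand genes higher at 48 h than at 0 h in both genotypes. No 48 h group was left unstimulated, so stimulation and time after isolation cannot be told apart. All 10 passed the filter on low counts. In edgeR's quasi-likelihood test, with a gene called at a Benjamini-Hochberg adjusted p under 0.05 over the 15935 genes tested, 2 rose (Inhba and Tgfb1) and 7 fell in WT, and the same numbers did so in CKO. Smad2 was not called in either genotype. Over all genes tested, 77.9% were called in WT (38.7% higher and 39.1% lower) and 77.7% in CKO (38.5% higher and 39.2% lower). The libraries of the times did not overlap for 9 members in each genotype, beside 79.4% of all genes in WT and 81% in CKO. The median log2 change of the 10 genes was -1.31 in WT and -1.18 in CKO, beside -0.03 and -0.04 over all genes. Some markers of other cells were lower at 48 h, like the members that fell. The B-cell sum at 0 h lay between 233 and 450 CPM in WT and between 161 and 202 CPM in CKO, without overlap. At 48 h it lay between 26.6 and 53.7 CPM over both genotypes. The sum of 7 myeloid markers lay between 38.7 and 77.1 CPM at 0 h and between 4.10 and 10.4 CPM at 48 h. The sum of 4 natural killer markers was 111 to 144 CPM at 0 h and 225 to 261 CPM at 48 h in WT. In CKO it was 111 to 186 and then 135 to 191 CPM. Within that list only Eomes rose, with a log2 change of 1.87 ± 0.17 in WT and 1.27 ± 0.16 in CKO. Ncr1, Klrb1c and Klra8 fell, with log2 changes of -4.57 ± 0.29, -3.58 ± 0.29 and -4.57 ± 0.23 in WT. In CKO these were -4.08 ± 0.27, -3.67 ± 0.28 and -5.14 ± 0.24. The sum of 4 CD4 and regulatory T-cell markers was 73.9 to 106 and then 76.9 to 96.8 CPM in WT. In CKO it was lower at 48 h without overlap, at 77.5 to 87.7 and then 56.7 to 76.7 CPM. The part of these markers in the falls was not tested.

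**Figure D1:**
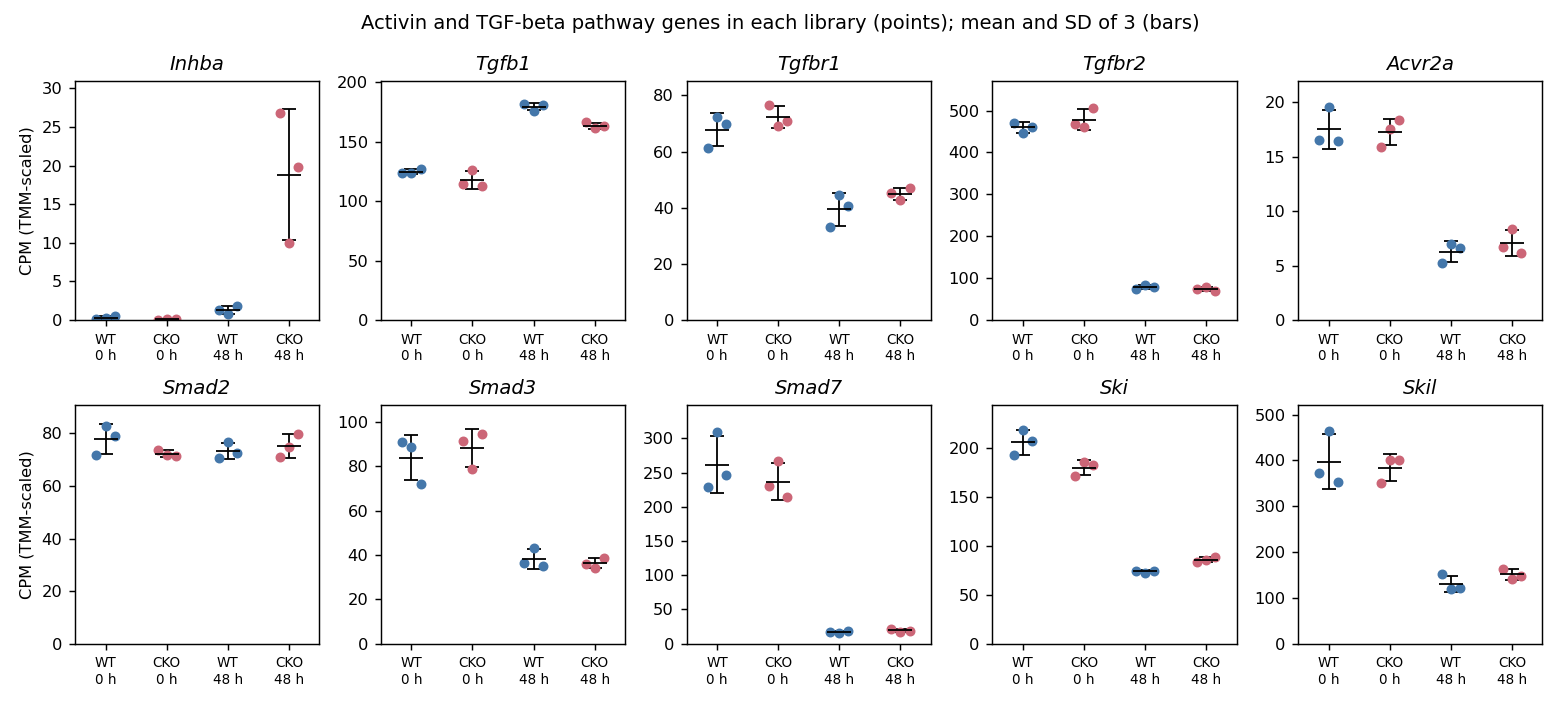
Level of each of the 10 genes in every library, in CPM on TMM-scaled totals on the vertical axes, which start at 0, by genotype and time. Points are libraries and bars show the mean and SD of 3; Tgfbr2, Smad7, Ski and Skil stand well below their 0 h levels at 48 h, Smad2 stays between 70.8 and 82.9 CPM, and Inhba is high in the 3 CKO libraries at 48 h only.

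Inhba (ENSMUSG00000041324, chromosome 13, 16011851 to 16031621 on the plus strand of GRCm38) was the member that differed most between the genotypes. Its raw counts in WT were 2, 5 and 8 at 0 h and 24, 16 and 41 at 48 h. In CKO they were 1, 2 and 3 at 0 h and 478, 181 and 391 at 48 h. Every 48 h CKO library thus held more Inhba counts than any other library, and at 0 h the genotypes overlapped. In WT the 48 h level averaged 1.32 ± 0.51 CPM, and in CKO it averaged 18.8 ± 8.46 CPM (SD, n = 3 each).

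From counts summed over each group, Inhba was 14.0-fold higher in CKO than in WT at 48 h, with an exact 95% counting interval of 11.2 to 17.8. The same ratio of 48 h to 0 h was 4.84 (2.77 to 9.05) in WT and 154 (70.6 to 421) in CKO, the latter against 6 counts in all. Such intervals cover counting error only, and the spread between libraries was larger. The coefficient of variation of Inhba within groups was between 39.0% and 64.8%, while the other 9 genes had a median of 6.29% over their 36 group values. The second 48 h CKO library had the lowest Inhba level of its group, 9.93 CPM against 26.8 and 19.8.

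The fitted log2 change of Inhba between CKO and WT was -1.15 ± 0.95 (SE) at 0 h and 3.81 ± 0.37 at 48 h. It was the gene with the 20th largest change among the 375 called higher in CKO at 48 h. The difference between the responses (the interaction) was 4.96 ± 1.04, and Inhba was 4th by size of the 97 genes called higher there. The 48 h difference was called with any 1 library left out, at 3.48 to 4.17 on the log2 scale. The interaction was not called in 7 of the 12 fits that left out 1 library: the second or the third 0 h WT library, the first or second 48 h WT library, or any 0 h CKO library. Its size was between 4.41 and 5.35 in all 12. Without both WT libraries numbered 1, the WT response of Inhba was 1.95 and its interaction 5.25, and neither was called, while the 48 h difference of 3.76 was.

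Markers of other cells were measured in the same 48 h libraries. The myeloid sum was 4.77 to 7.07 CPM in WT and 4.10 to 10.4 CPM in CKO. The sum of 5 stromal markers was 0.94 to 1.42 CPM in WT and 1.06 to 1.76 CPM in CKO, and of 5 platelet markers Ppbp and Gp1bb were at 0 in all 48 h libraries, with Pf4 and Gp9 also at 0 in WT. The B-cell sums overlapped, at 26.6 to 53.7 CPM in WT against 32.1 to 48.9 CPM in CKO. Every CKO library was under every WT library in 3 sums: those of the CD8 markers (1730 to 1781 CPM in WT against 1483 to 1549 in CKO), the CD4 and regulatory markers (76.9 to 96.8 against 56.7 to 76.7) and the natural killer markers (225 to 261 against 135 to 191). Of the natural killer list, Eomes, a transcription factor gene that activated CD8+ T cells also express, was lower in CKO by 73.3 CPM on average. Its log2 difference of -0.53 ± 0.16 was not called (adjusted p = 0.109). Ncr1 and Klrb1c of that list went the other way, at 0.79 ± 0.38 and 0.38 ± 0.35 with no overlap but no call (adjusted p = 0.307 and 0.672), and Klra8 overlapped. The part of these markers in the Inhba difference was not tested. Few counts lay on the genes that overlap Inhba on the other strand, Gm48444 with 3 in all and B230303A05Rik with 0.

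The window around the annotated start of Inhba is shown with that of Tgfbr2, the receptor gene of the 10 that fell most in both genotypes. Both windows hold 250 bases before and 50 bases after the RefSeq start on GRCm38.p6, at chr13:16011601-16011900 on the plus strand and chr9:116175314-116175613 on the minus strand, and are written 5′ to 3′ in the direction of the gene. Capitals mark matches to the motifs named after them.
Inhba: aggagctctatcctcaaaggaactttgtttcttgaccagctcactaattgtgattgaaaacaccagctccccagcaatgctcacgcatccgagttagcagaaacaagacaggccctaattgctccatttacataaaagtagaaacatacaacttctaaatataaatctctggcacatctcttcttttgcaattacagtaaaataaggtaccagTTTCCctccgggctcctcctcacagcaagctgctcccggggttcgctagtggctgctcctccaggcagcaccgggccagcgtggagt
Tgfbr2: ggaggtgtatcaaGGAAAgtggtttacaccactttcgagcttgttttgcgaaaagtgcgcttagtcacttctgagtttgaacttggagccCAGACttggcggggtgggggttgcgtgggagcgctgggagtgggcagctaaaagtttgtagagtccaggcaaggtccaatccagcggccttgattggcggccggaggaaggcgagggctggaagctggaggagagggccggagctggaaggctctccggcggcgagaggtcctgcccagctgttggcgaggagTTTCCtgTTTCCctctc

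Both strands were searched for 5 motifs, none of which contains another: the AP-1 site TGANTCA, the cAMP response element TGACGTCA, the SMAD palindrome GTCTAGAC, the SMAD core CAGAC and the NFAT core GGAAA, which reads TTTCC on the other strand. The Inhba window held 1 match to GGAAA, with its first base at -37 from the start, and none to the other motifs. The Tgfbr2 window held 1 match to CAGAC at -160 and 3 to GGAAA, at -237, 33 and 40. Of all 32851 RefSeq windows of 300 bases, 61.3% held GGAAA, 49.6% CAGAC, 7.81% TGANTCA, 1.79% TGACGTCA and 0.213% GTCTAGAC, so the matches seen are common ones. The G and C content was 47.7% in the Inhba window and 59.0% in that of Tgfbr2, beside a median of 52.7% over all windows and 85.3% for Ski. Windows were also found for Tgfb1, Tgfbr1, Acvr2a and Smad3, and none of the member windows held TGANTCA, TGACGTCA or GTCTAGAC.

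The 4 genes with a pattern over the 12 libraries most like that of Inhba were Dclk1, Crabp2, Il23a and Penk. Likeness was measured as the root mean square difference between log2 CPM centred on each gene's mean, over 10023 protein-coding genes of at least 5 CPM in their highest group, and was 0.61, 0.67, 0.83 and 0.99. Dclk1, a kinase gene, went from 3.19 ± 0.34 CPM in WT to 36.2 ± 6.18 CPM in CKO at 48 h, and Crabp2, whose product binds retinoic acid, from 2.87 ± 1.17 to 13.2 ± 5.26 CPM. Il23a, a subunit gene of the cytokine IL-23, went from 2.03 ± 0.59 to 6.40 ± 1.42 CPM, and Penk, which encodes an opioid peptide precursor, from 4.12 ± 1.81 to 28.7 ± 4.30 CPM (SD, n = 3 each). Like Inhba, all 4 were under 1 CPM on average in both 0 h groups. These genes were found by their likeness to Inhba, so their genotype differences are no separate finding, and ranking by Pearson's r kept 2 of the 4.

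Tgfb1 (ENSMUSG00000002603) stood far above Inhba per kb of exon in every group and moved less. In WT it was at 123.7, 123.5 and 127.0 CPM at 0 h and 181.9, 176.2 and 180.7 CPM at 48 h. In CKO it was at 114.3, 126.2 and 112.4 CPM at 0 h and 166.3, 161.2 and 163.0 CPM at 48 h. The time groups did not overlap in either genotype, and the log2 change was 0.53 ± 0.06 in WT and 0.47 ± 0.06 in CKO. At 48 h every CKO library was under every WT library, with a log2 difference of -0.14 ± 0.06 that was not called.

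Tgfbr2 (ENSMUSG00000032440, chromosome 9, 116084293 to 116175360 on the minus strand of GRCm38), the type II TGF-beta receptor gene, fell strongly from 0 h to 48 h. It was at 471, 447 and 461 CPM in WT and 468, 461 and 507 CPM in CKO at 0 h. At 48 h it was at 74.9, 83.8 and 79.8 CPM in WT and 74.1, 78.7 and 70.1 CPM in CKO. The times stood far apart and the genotypes overlapped at each time. The log2 change was -2.53 ± 0.07 in WT and -2.69 ± 0.07 in CKO.

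Tgfbr1 (ENSMUSG00000007613), the type I TGF-beta receptor gene, fell less. In WT it lay between 61.2 and 72.2 CPM at 0 h and between 33.1 and 44.6 CPM at 48 h. In CKO it lay between 69.1 and 76.6 CPM at 0 h and between 42.8 and 47.0 CPM at 48 h, with no overlap between the times. The log2 change was -0.78 ± 0.09 in WT and -0.68 ± 0.09 in CKO. Within a library, Tgfbr1 had 14.8 ± 1.62 counts for every 100 of Tgfbr2 in WT at 0 h and 49.4 ± 4.77 at 48 h. In CKO this ratio was 15.1 ± 1.19 at 0 h and 60.9 ± 6.35 at 48 h. The pair of receptor genes thus moved unequally in both genotypes.

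Acvr2a (ENSMUSG00000052155), a type II activin receptor gene, had the lowest level per kb of exon at 0 h of all members but Inhba. It fell from 16.5, 19.6 and 16.5 CPM at 0 h to 6.27 ± 0.95 CPM at 48 h in WT. In CKO it fell from 17.3 ± 1.23 to 7.06 ± 1.19 CPM (SD, n = 3). The log2 change was -1.48 ± 0.15 and -1.29 ± 0.15. The gene overlaps the end of Orc4 on the other strand, which had 3290 to 4919 counts summed over a group against 379 to 952 for Acvr2a, and since the strand setting of the counting is not given, reads of the shared stretch cannot be assigned.

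The receptor-activated SMAD genes behaved unlike each other. Smad2 (ENSMUSG00000024563) was at 77.9 ± 5.64 CPM at 0 h and 73.3 ± 2.98 CPM at 48 h in WT, and at 72.3 ± 1.30 and 75.2 ± 4.44 CPM in CKO (SD, n = 3). Its log2 change was -0.09 ± 0.07 in WT and 0.06 ± 0.07 in CKO, the groups overlapped, and a call of -0.17 in WT appeared only with a stricter count filter. Smad3 (ENSMUSG00000032402) fell from 84.0 ± 10.3 to 38.2 ± 4.46 CPM in WT and from 88.3 ± 8.43 to 36.2 ± 2.24 CPM in CKO. The log2 change of Smad3 was -1.14 ± 0.10 and -1.28 ± 0.10. For every 100 counts of Smad2 there were 108 ± 17.7 of Smad3 at 0 h and 52.1 ± 4.24 at 48 h in WT, and 122 ± 11.4 and 48.2 ± 2.35 in CKO.

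Smad7 (ENSMUSG00000025880, chromosome 18), the inhibitory SMAD gene, had the largest fall of the 10 genes in both genotypes. It was at 229 to 309 CPM in WT and 214 to 267 CPM in CKO at 0 h, and at 16.4 to 18.1 CPM and 17.5 to 21.5 CPM at 48 h. The log2 change was -3.91 ± 0.12 in WT and -3.61 ± 0.12 in CKO, a fall of 15.1-fold and 12.2-fold. By size this was place 518 among the 6237 genes called lower in WT and place 613 of 6246 in CKO. The level of Smad7 fell further than that of Smad3, from 314 ± 53.7 to 45.8 ± 7.23 Smad7 counts for every 100 of Smad3 in WT. In CKO the ratio went from 272 ± 59.1 to 53.4 ± 5.72. The patterns most like that of Smad7 were those of Klrd1, Stk17b, Il7r and Dgat1, with root mean square differences of 0.18 to 0.20, and ranking by Pearson's r kept none of the 4.

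Ski (ENSMUSG00000029050, chromosome 4, 155154075 to 155222592 on the minus strand of GRCm38), a SMAD corepressor gene, fell in both genotypes and fell less in CKO. It was at 206 ± 12.8 CPM in WT against 180 ± 7.29 CPM in CKO at 0 h, and at 74.1 ± 1.26 and 86.0 ± 2.67 CPM at 48 h (SD, n = 3). At 0 h the CKO libraries lay between 172 and 186 CPM and the WT libraries between 193 and 219. At 48 h the order was turned, with CKO between 83.5 and 88.8 CPM and WT between 72.7 and 74.9. Neither genotype difference, -0.19 ± 0.06 at 0 h and 0.21 ± 0.06 at 48 h on the log2 scale, was called, while the interaction of 0.41 ± 0.09 was.

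The interaction of Ski was not called without the second WT library of either time, the first 0 h CKO library or the third 48 h CKO library, at 0.37 to 0.38. Without both WT libraries numbered 1 it was called at 0.45, and the genotype differences of Ski were called too, at -0.23 at 0 h and 0.21 at 48 h. Skil (ENSMUSG00000027660), the related corepressor gene, went from 397 ± 59.7 to 131 ± 18.1 CPM in WT and from 384 ± 29.6 to 151 ± 11.6 CPM in CKO. Its log2 change was -1.60 ± 0.12 and -1.35 ± 0.12, and its interaction, 0.26 ± 0.16, was not called. Ski had 47.1 to 57.3 counts for every 100 of Skil on average in each group.

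Per kb of merged exons, the 10 genes changed order between 0 h and 48 h. At 0 h in WT, Smad7 (57.8 ± 9.25 CPM per kb) and Tgfbr2 (56.2 ± 1.48) were highest and did not differ beyond their spread. Skil (41.0 ± 6.16) and Ski (37.1 ± 2.30) followed, also overlapping, then Tgfb1 at 24.7 and Smad3 at 15.2 CPM per kb. Tgfbr1 and Smad2 overlapped at 10.4 and 8.87, Acvr2a was at 3.08, and Inhba was last at 0.044 CPM per kb. At 48 h in WT, Tgfb1 was first at 35.6 ± 0.59 CPM per kb, Skil and Ski followed with overlap at 13.5 and 13.3, and Tgfbr2 was at 9.71. Inhba was last in WT at 0.21 ± 0.08 CPM per kb, but in CKO at 48 h it was at 2.95 ± 1.32, above Acvr2a at 1.24 ± 0.21 and overlapping with Smad7 at 4.28 ± 0.44.

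Few of the members were called between the genotypes. At 0 h none of the 10 was called by edgeR, 1 (Ski) had an unadjusted p under 0.05 and DESeq2 called 1 (Ski), beside 7.48% of all genes called by edgeR (4.1% higher and 3.38% lower). The groups did not overlap for 1 member (Ski), beside 24.6% of all genes. At 48 h 1 was called and was higher (Inhba), beside 4.54% of all genes (2.35% higher and 2.19% lower), and DESeq2 called 2. The groups did not overlap for 3 members (Inhba, Tgfb1 and Ski), beside 23.7% of all genes. In the interaction 2 were called, both higher (Inhba and Ski), beside 1.38% of all genes (0.609% higher and 0.772% lower). The median log2 difference of the 10 genes was -0.07 at 0 h and 0.16 at 48 h, beside -0.01 over all genes at both times.

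**Figure D2:**
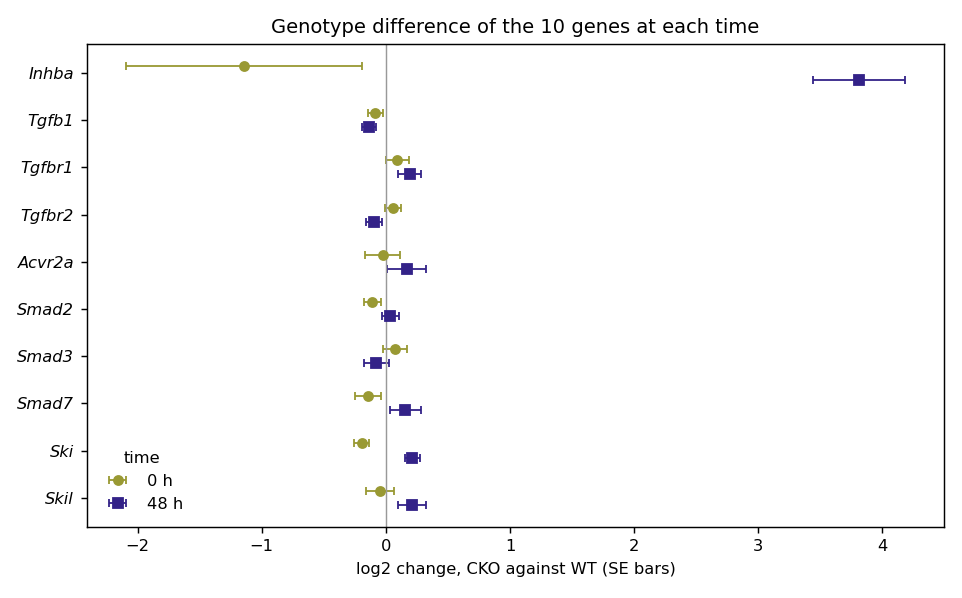
Fitted log2 difference between CKO and WT (horizontal axis) of each of the 10 genes at 0 h (circles) and 48 h (squares), with SE bars. Inhba stands at 3.81 at 48 h, the other genes lie within 0.25 of 0 at both times, and Ski is at -0.19 at 0 h and 0.21 at 48 h.

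The rest of the pathway was followed with 94 further genes listed by role, of which 93 were matched to an ID and 71 passed the filter on low counts. Between the times 25 of the 71 rose in WT and 24 in CKO, beside 38.7% and 38.5% of all genes, while 36 fell in WT and 35 in CKO, beside 39.1% and 39.2%. Their median log2 change was -0.32 in WT and -0.45 in CKO. The adjusted p-values below are from the same edgeR fit over all 15935 genes.

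Among the other ligand genes, Inhbb, whose product forms activin B, had no counts at 0 h in either genotype and 41 counts in WT and 20 in CKO at 48 h. Against 3 counts over the group, this is at least 12.3-fold higher in WT and at least 5.88-fold higher in CKO. Tgfb3 fell by 1.13 ± 0.38 in WT and 1.18 ± 0.38 in CKO on the log2 scale (adjusted p = 0.0127 and 0.00941). The WT fall of Tgfb3 was not called without the second 48 h WT library, at -0.77. Among the receptor genes, Acvr1b, the type I receptor gene of activin, fell by 1.60 ± 0.09 and 1.56 ± 0.09, and Eng, a co-receptor gene, rose by 1.64 ± 0.12 and 1.54 ± 0.12. Acvr1, a type I receptor gene of the BMP branch, went from 0.31 to 2.75 CPM in WT and from 0.65 to 3.57 CPM in CKO.

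Of the antagonists, Fst, which encodes the activin-binding protein follistatin, fell by 4.98 ± 0.64 in WT (adjusted p = 6.6e-07). In CKO it had 75 counts at 0 h and 3 at 48 h, a 28.4-fold lower level with a counting interval of 9.34 to 141. Bambi, a decoy receptor gene, fell by 3.72 ± 0.26 and 3.43 ± 0.28. Cd109, a TGF-beta co-receptor gene that limits signalling, rose by 3.89 ± 0.53 and 5.52 ± 0.55. These sizes rest on few 0 h counts: 5, 0 and 2 in WT and 1, 2 and 1 in CKO. Its interaction of 1.63 ± 0.99 was not called (adjusted p = 0.532). Smad4, the common partner of SMAD2 and SMAD3, fell by 1.10 ± 0.06 in WT and 1.01 ± 0.06 in CKO. The ubiquitin ligase genes Smurf1 and Smurf2 fell by 1.61 ± 0.07 and 1.35 ± 0.07 in WT and by 1.44 ± 0.07 and 1.36 ± 0.07 in CKO.

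Genes that TGF-beta is known to induce or repress went both ways. Of 7 tested genes of the induced list, WT had 3 that rose and 4 that fell, and CKO had 4 and 3. Itgae fell from between 117 and 132 CPM to between 0.62 and 1.86 CPM in WT and from between 184 and 194 CPM to between 1.85 and 2.47 CPM in CKO, while Cdkn1a, a cell-cycle inhibitor gene, rose from 10.1 ± 1.47 to 432 ± 55.5 CPM and from 10.9 ± 1.37 to 408 ± 27.4 CPM. Of 8 tested genes of the repressed list, 3 rose (Gzmb, Ifng and Tbx21) and 5 fell in WT and again in CKO. S1pr5, a receptor gene that guides cells out of tissue, had 157 counts at 0 h and 1 at 48 h in WT, a 175-fold lower level with a wide counting interval of 31.0 to 6958.

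**Figure D3:**
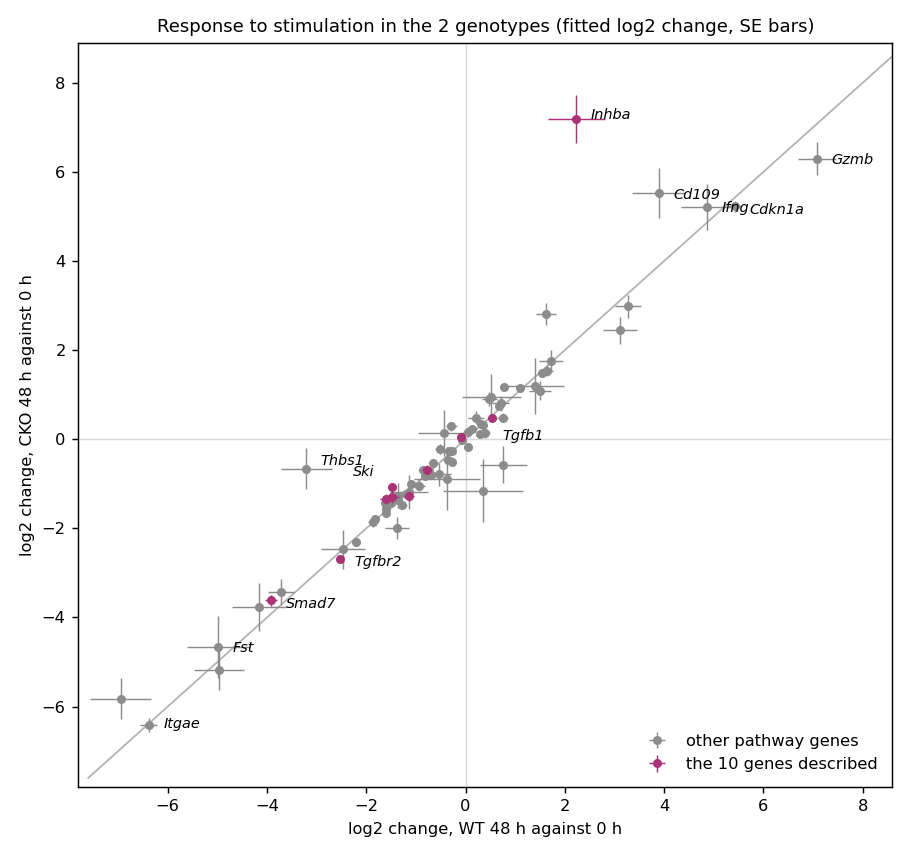
Fitted log2 change from 0 h to 48 h in WT (horizontal axis) and CKO (vertical axis) for the 10 genes and 68 other pathway genes, with SE bars and the line of equal change; Inhbb, which had 0 counts in a whole group, is not drawn. Most genes lie near the line; Inhba lies above it at 2.23 in WT and 7.19 in CKO.

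At 0 h, 15 of the 71 other genes differed between the genotypes, 7 higher and 8 lower in CKO, beside 7.48% of all genes (4.1% higher and 3.38% lower). Of 9 receptor and co-receptor genes tested, 4 were called and were lower. Acvrl1 (2.18 ± 0.76), Acvr2b (1.46 ± 0.46) and Acvr1 (1.04 ± 0.41) were instead higher in CPM in every CKO library than in any WT library, but were not called (adjusted p = 0.137, 0.0608 and 0.14). Of the 9 genes, 7 had no overlap, beside 24.6% of all genes. Counts were low: Acvr2b had 6, 10 and 7 in WT against 13, 22 and 23 in CKO, and Acvr1 4, 8 and 5 against 12, 8 and 12. Acvrl1 had 51, 37 and 1 in WT against 95, 155 and 114 in CKO, so its size leans on the third WT library. Bmpr1a, a type I BMP receptor gene, was at 5.27 ± 1.56 CPM in WT against 1.59 ± 0.12 CPM in CKO, a log2 difference of -1.72 ± 0.25 (adjusted p = 0.000212). Acvr1b differed by -0.37 ± 0.08 (adjusted p = 0.0101), Tgfbr3, the betaglycan co-receptor gene, by -0.46 ± 0.10 (adjusted p = 0.0119), and Bmpr2 by -0.55 ± 0.16 (adjusted p = 0.0342). Hdac1, a histone deacetylase of corepressor complexes, differed by -0.57 ± 0.06 (adjusted p = 5.88e-06). The B-cell marker sum was also lower in every CKO library at 0 h, at 161 to 202 CPM against 233 to 450 in WT. So was the platelet marker sum, at 5.57 to 7.99 against 8.76 to 11.5 CPM. None of the tested markers of these lists was called, and the other marker sums overlapped. The part of these markers in the 0 h differences was not tested.

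Higher in CKO at 0 h were Wwp1, a ubiquitin ligase gene, by 0.54 ± 0.06 (adjusted p = 1.99e-05), Runx2, a SMAD partner gene, by 0.70 ± 0.16 (adjusted p = 0.00935), and Itgae by 0.62 ± 0.11 (adjusted p = 0.00247). Of 7 tested genes of the induced list, 1 was called higher (Itgae) and 1 lower. Of 8 tested genes of the repressed list, 2 were called and both were higher. These were S1pr5 by 1.16 ± 0.30 and Klrg1 by 1.15 ± 0.31 (adjusted p = 0.0201 and 0.0263). The second CKO library lay close to WT in both genes. S1pr5 was at 7.93, 4.06 and 7.37 CPM in the CKO libraries, against at most 3.29 CPM in WT. Klrg1 was at 8.30, 3.88 and 9.87 CPM, against at most 3.63 CPM. Leaving out 1 library brought the count of 15 to between 6 and 17, with 9 and 8 without the second and the third 0 h WT library and 7 and 6 without the first and the third 0 h CKO library. The calls of Id2, Bambi, Tgfbr3, Klrg1, Usp11, Runx2 and S1pr5 were each lost in at least 1 such fit, in which Bmpr2 was not followed, and Runx2 was at 0.58 without the first and 0.61 without the third 0 h CKO library. Without both WT libraries numbered 1 the call of Usp11, a deubiquitinase gene, was lost, with a log2 difference of 0.22 (adjusted p = 0.0704) in place of 0.25.

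At 48 h, 7 of the 71 differed between the genotypes, with 5 higher in CKO, among them Runx2, Pmepa1, Itgav and Wwp1, and 2 lower, among them Hdac1. Of all genes 4.54% were called there (2.35% higher and 2.19% lower). DESeq2 called 8, and 11 were called without both WT libraries numbered 1. Acvr1b, at -0.33 ± 0.09, was not called (adjusted p = 0.0512) but was called without those 2 libraries, at -0.39 (adjusted p = 0.0225).

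Pmepa1, a TGF-beta induced gene whose product limits SMAD signalling, was at 17.4, 16.4 and 16.8 CPM in WT and 29.8, 27.5 and 30.6 CPM in CKO at 48 h. Its log2 difference was 0.80 ± 0.11 (adjusted p = 0.000127). From 0 h to 48 h it fell by 0.28 ± 0.11 in WT (adjusted p = 0.026) and rose by 0.29 ± 0.11 in CKO (adjusted p = 0.0219), with overlap between the times in WT and none in CKO. The interaction of 0.57 ± 0.16 was not called (adjusted p = 0.0814), but it was called without both WT libraries numbered 1, at 0.70 (adjusted p = 0.0099), without the first 0 h one alone, with no count filter and with DESeq2 (adjusted p = 0.0174, 0.034 and 0.0351). Itgav, the alpha-V integrin subunit gene whose product releases TGF-beta from its latent form, was at 80.6 ± 2.53 CPM in WT against 111 ± 9.62 CPM in CKO, a log2 difference of 0.47 ± 0.07 (adjusted p = 0.000426).

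Runx2 was at 12.3 ± 1.65 CPM in WT against 24.1 ± 0.78 CPM in CKO at 48 h, a log2 difference of 0.98 ± 0.15 (adjusted p = 0.00048). Wwp1 differed by 0.31 ± 0.06 (adjusted p = 0.00634), which was not called without the third 48 h CKO library, at 0.27. Hdac1 was at 217 ± 6.47 CPM in WT against 154 ± 0.44 CPM in CKO, a difference of -0.50 ± 0.06 (adjusted p = 2.6e-05). Runx2, Wwp1 and Hdac1 were called in the same direction at 0 h, whereas Pmepa1 and Itgav were not called at 0 h.

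Whether the response differed between the genotypes was tested for the same 71 genes. None was called in the interaction by edgeR, 6 had an unadjusted p under 0.05, DESeq2 called 5, and 3 were called without both WT libraries numbered 1, beside 1.38% of all genes called by edgeR with all libraries. The interactions of Bmpr1a and Itgav were 1.19 ± 0.32 and 0.41 ± 0.10 (adjusted p = 0.0787 and 0.0596). Both were called without both WT libraries numbered 1, at 1.13 and 0.45 (adjusted p = 0.0371 and 0.0215), with no count filter (0.00269 and 0.029) and with DESeq2 (0.0333 and 0.0214). That of Bmpr1a was also called without the second 0 h or the first 48 h WT library, at 1.37 and 1.39, and that of Itgav without the first 0 h WT or the second 48 h CKO library, at 0.47 each. Of the genes held down by TGF-beta, Ifng was at 245 ± 95.7 CPM in WT against 563 ± 125 CPM in CKO at 48 h, a log2 difference of 1.20 ± 0.41 that was not called (adjusted p = 0.174).

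**Figure D4:**
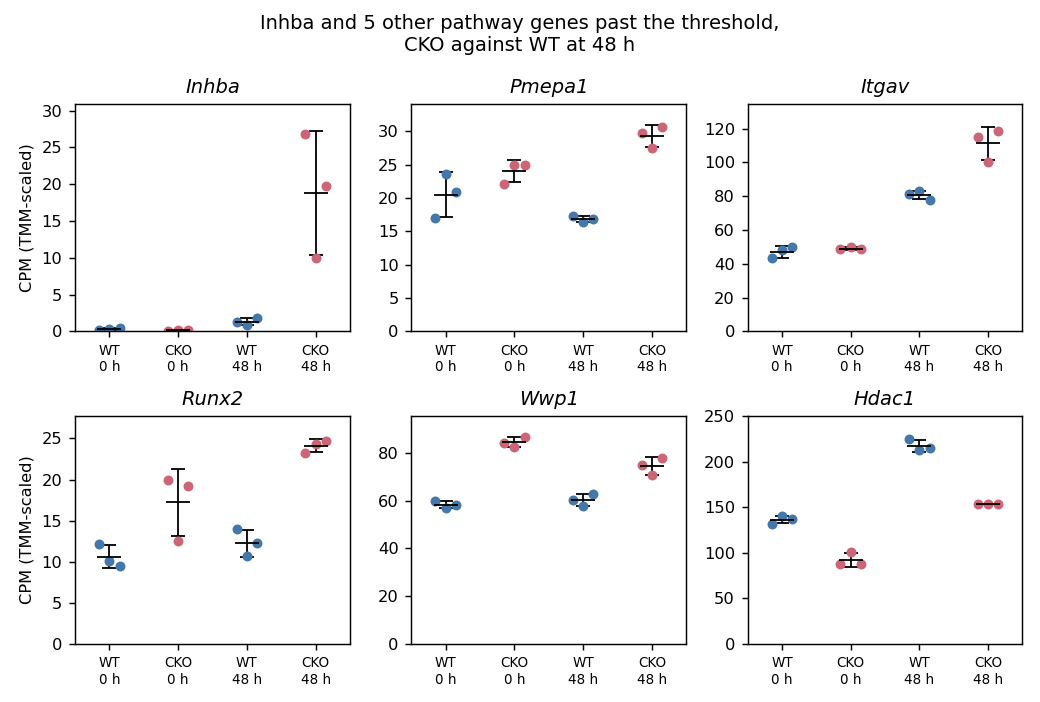
Level of Inhba and of 5 other pathway genes called between CKO and WT at 48 h, in CPM on TMM-scaled totals on axes that start at 0, in every library (points) with the mean and SD of 3 (bars). At 48 h the genotypes do not overlap in any panel; Inhba is spread widely among the CKO libraries, from 9.93 to 26.8 CPM.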

How the data were processed

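Per the labels' protocols, TRIzol was used for the RNA and a TruSeq Stranded mRNA kit for the libraries. The authors deposited a table of unscaled counts for each Ensembl gene ID. The submitters' processing notes name GRCm39 as the build and cutadapt, HISAT2 2.2.1 and DESeq2 as tools. How reads were counted, with which annotation and strand setting, is not given in the sources used here. Positions and exon lengths are from GENCODE M21 on GRCm38.

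Counts of all 12 libraries entered 1 fit with TMM factors in edgeR 4.0.16 (filterByExpr on the 4 groups, quasi-likelihood, robust, two-sided, 8 residual degrees of freedom) in R 4.3.3, with Benjamini-Hochberg adjustment over 15935 genes. Changes are log2 with their SE, and the common coefficient of variation was 0.0999. The fit was tested on simulated data in which all genes had the same spread and only genes with higher counts were changed. That test does not cover genes as low and as variable as Inhba. The 5 contrasts were 48 h against 0 h in each genotype, CKO against WT at each time, and the interaction. The members, the lists of other pathway genes and the markers were chosen with earlier results of these data known. The naming rule took Senp1, the members, and per list and contrast up to 3 called genes with the smallest adjusted p, or the 1 with the smallest p, and genes were also named where a count of 5 or fewer was given in full. The responses of Pmepa1, the CKO response of Acvr1, receptor genes higher in CKO at 0 h without a call, genes whose call changed under an alternative and the genes too low to test were named outside it, after their values were seen. Some listed genes are counted but not reported here by name or drawn.

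Alternatives were other scalings (median-of-ratios, library totals), no or a stricter count filter (1 CPM in 6 libraries), a replicate block, fits of the groups compared, leaving out libraries, DESeq2 1.42.0 and a log2 change of at least 1. Python 3.11.15 with matplotlib 3.10.9, pandas 2.3.3, SciPy 1.17.1 and NumPy 2.4.6 made the tables and plots.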

Additional observations from a re-analysis of the deposited data

Results flagged for a closer look

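Both results stand here because the interaction of the gene was called. The members were picked with earlier results of these data in view, so these calls are a description and no separate support. For Inhba the difference between the responses was 4.96 ± 1.04 (log2, SE), with Inhba higher in CKO in 3 of 3 libraries at 48 h. For Ski it was 0.41 ± 0.09, with Ski lower in CKO in 3 of 3 libraries at 0 h and higher in 3 of 3 at 48 h. Of the 12 fits that left out 1 library, the interaction was called in 5 for Inhba and in 8 for Ski. Without both WT libraries numbered 1 it was not called for Inhba.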

How the results depend on the processing

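The 50 log2 changes of the members gave 1014 values under the alternatives: 983 kept their direction and side of the threshold, 13 lost a call, 15 gained one, and 3 that were not called changed sign (Smad2 in CKO, Skil and Smad3 at 0 h). No called value changed sign. Ski was called in CKO against WT at 48 h under 8 alternatives (0.21 to 0.23) and at 0 h under 6.

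Members called at 0 h went from 0 to 1 with the stricter filter, the replicate block, without both WT libraries numbered 1 and with DESeq2 (0 to 1 leaving out 1 library). At 48 h they went from 1 to 2 with median-of-ratios factors, library totals, the replicate block, only the 2 groups compared, without both WT libraries numbered 1 and with DESeq2 (1 to 2 leaving out 1 library). Inhba was not tested with the stricter filter, and the member called there at 48 h was Ski (adjusted p = 0.0414). In the interaction members called went from 2 to 1 with that filter, without both WT libraries numbered 1 and at a log2 change of at least 1 (0 to 2 leaving out 1 library). The other pathway genes called between the times went from 61 to 38 in WT and from 59 to 38 in CKO at a log2 change of at least 1 (57 to 62 and 59 to 61 leaving out 1 library). At 0 h they went from 15 to 3 at that size (6 to 17 leaving out 1 library). At 48 h they went from 7 to 12 with no filter, 11 without both WT libraries numbered 1 and 1 at that size (5 to 9 leaving out 1 library). In the interaction they went from 0 to 6 with no filter, 2 with the replicate block, 3 with a block within each genotype (Bmpr1a and Itgav among them, adjusted p = 0.0132 and 0.0468), 3 without both WT libraries numbered 1 and 5 with DESeq2 (0 to 2 leaving out 1 library). The cause was not tested.

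Libraries with the same number correlated at -0.0036 to 0.162. Only the first and the second WT libraries, each 0 h with 48 h, passed 0.1, at 0.162 and 0.156. The numbers were therefore not taken as pairs in the main fit. Within each genotype, though, every 0 h library was matched best by the 48 h library of its own number, at 0.0424 to 0.162. Between the genotypes this failed for the third libraries at 0 h and the second at 48 h. A pairing by number thus remains possible, and fits with a replicate block are among the alternatives. Scaling moved the median of all genes by at most 0.035 on the log2 scale. At 0 h Inhba had at most 8 counts in a library, which limits the precision of its response.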

Other observations

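Of the 93 further pathway genes matched, 22 were too low to be tested. Tgfb2, a TGF-beta ligand gene, had 0, 8 and 3 counts in WT and 7, 9 and 13 in CKO at 0 h, and 3, 2 and 3 in WT and 8, 14 and 10 in CKO at 48 h. No test was made. In raw counts the genotypes overlapped at 0 h and not at 48 h. In CPM every CKO library was above every WT library at both times, at 0 h only just (0.430 against 0.405 CPM at the nearest). Of all tested genes, 24.6% at 0 h and 23.7% at 48 h had no overlap. Inha, whose product joins an activin subunit to form inhibin, had 18 counts in WT and 10 in CKO over the 48 h libraries. Inhbc, Mstn, Gdf1 and Itgb6 had 0 counts in all 12 libraries.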
